A study of Mus musculus with 6 samples.

Results

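To ask whether LDL alters the antigen presentation genes of the intestinal epithelium, 7 genes of the MHC class II pathway were examined in organoids grown from mouse small intestine crypts. The genes were H2-Aa, H2-Ab1, H2-Eb1, H2-DMa, H2-DMb1, Cd74 and Ciita, a list given by name with no threshold on their values though with earlier results of these data known, and all 7 were found by Ensembl identifier among the 55416 genes of the deposited table. Crypts of duodenum and jejunum from 3 wild-type C57BL/6 mice were cultured for 5 days with PBS or with LDL at 50 μg/ml. Each mouse gave 1 culture to each treatment, so that there were 3 LDL-treated and 3 PBS-treated libraries, with 22061545 to 31073360 reads on genes. The animal identifier of mouse 3 has another prefix than those of mice 1 and 2, whereas the genotype label of all 3 is WT.

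MHC class II molecules present peptides from endosomes to CD4+ T cells. An alpha and a beta chain assemble in the endoplasmic reticulum with the invariant chain encoded by Cd74, and the H2-DM heterodimer later exchanges the remaining invariant chain fragment for antigenic peptide. Transcription depends on CIITA, a coactivator without DNA binding of its own that is recruited by RFX and NF-Y proteins bound to the X and Y boxes of class II promoters. Interferon-gamma induces Ciita through its receptor and JAK kinases. In the small intestine, enterocytes and crypt cells can carry class II in vivo, where microbes and interferon-gamma promote it, and dendritic cells, macrophages and B cells of the lamina propria express it constitutively.

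The X and Y boxes are the promoter elements through which CIITA acts on the genes as a group, and the bases before the start site show how they lie in 3 members. Of the 7 members, 4 (H2-Aa, H2-Eb1, H2-DMa and H2-DMb1) have promoters in the RefSeq table of GRCm38.p6, with 5 start sites in all. The X box core was searched as AG, any 2 bases, AC, any base and GATG, and the Y box as GATTGG, on both strands, from 250 bases before to 50 after the start. Capitals mark these matches in the 130 bases before the start of each gene, written 5′ to 3′ on the strand of the gene, at chr17:34305737-34305866 (plus strand), chr17:34153061-34153190 (plus strand) and chr17:34287824-34287953 (minus strand).
H2-Eb1: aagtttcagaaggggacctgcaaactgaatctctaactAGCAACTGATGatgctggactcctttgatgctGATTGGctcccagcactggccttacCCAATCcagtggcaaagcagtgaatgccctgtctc
H2-DMb1: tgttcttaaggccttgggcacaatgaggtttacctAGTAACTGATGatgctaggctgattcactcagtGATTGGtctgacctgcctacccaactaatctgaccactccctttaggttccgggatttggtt
H2-Aa: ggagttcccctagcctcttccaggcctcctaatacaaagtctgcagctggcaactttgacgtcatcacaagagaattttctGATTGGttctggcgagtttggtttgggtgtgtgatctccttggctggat
H2-Eb1 and H2-DMb1 held the X box core followed by a Y box, with 21 and 22 bases between them. H2-Aa held a Y box and no match to these letters of the X box. H2-DMa, not shown, had no X box match at either start site and a lone Y box at -199 to -194 bases from a start. The X box core was present in 2 of the 5 member promoters and in 0.968% of the 32851 promoters of the table. For the Y box these were 4 of 5 and 16.1%. A gamma-activated site (TTCNNNGAA) and an interferon response core (2 copies of GAAA with 2 bases between them) were found in none of the 5 member promoters, and in 8.30% and 3.44% of all promoters. These matches are descriptions of sequence and not of binding.

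The class II genes were expressed at low levels in all 6 libraries, with or without LDL. Values are given as normalized counts, in which the reads of a gene are scaled by 1 size factor per library, and 1 read was worth 0.814 to 1.24 normalized counts. Together the 7 genes took 86, 153 and 127 reads in the PBS-treated organoids of mice 1, 2 and 3, and 85, 157 and 130 reads in the LDL-treated organoids. These were 3.53, 6.94 and 4.09 reads per 1000000 with PBS and 3.55, 5.52 and 4.46 with LDL, and the 95% Wilson intervals, which cover counting error only, ran from 2.86 at the lowest to 8.12 at the highest. The 2 treatments overlapped, and the highest value in each came from mouse 2. H2-DMa alone held between 34.0% and 62.8% of these reads.

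H2-Ab1 and H2-Aa encode the beta and alpha chain of I-A. H2-Ab1 (chromosome 17 of GRCm39, 34476663 to 34488393) had normalized counts of 5.10, 46.0 and 13.0 with PBS and of 9.76, 39.1 and 18.4 with LDL in mice 1, 2 and 3. Mouse 2 was the highest under both treatments, and the groups overlapped across most of their range. The mean was 21.4 ± 21.7 with PBS and 22.4 ± 15.1 with LDL (SD, n = 3), and the log2 fold change of LDL over PBS was 0.35 ± 0.77 (SE; adjusted p = 0.848, limma). Its partner H2-Aa (chromosome 17, 34493404 to 34506798) was barely detected. It had 0, 2 and 0 reads with PBS and 1 read in each LDL-treated library, so every library lay within the 3 reads that a count of 0 allows. Per kilobase of exon, the mean level was 8.53 normalized counts for H2-Ab1 and 0.212 for H2-Aa, which are the partners of 1 heterodimer. H2-Aa overlaps H2-Eb1 by 2563 bases on the other strand, with 118 bases of shared exon.

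H2-Eb1 (chromosome 17, 34504236 to 34535648) encodes the beta chain of I-E, whose alpha chain gene H2-Ea is silenced by a promoter deletion in C57BL/6 mice. Its normalized counts were 4.08, 11.2 and 0 with PBS and 4.88, 4.55 and 5.85 with LDL. The PBS-treated values surrounded the LDL-treated ones, and the means were both 5.09. H2-Ea was covered by no read in the PBS-treated libraries and by at most 2.44 normalized counts in the LDL-treated ones.

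Cd74, on chromosome 18, encodes the invariant chain, which is usually the most abundant transcript of the class II pathway in cells that present antigen. Here its normalized counts were 15.3, 48.5 and 11.4 with PBS and 9.76, 20.0 and 14.2 with LDL. The value of the PBS-treated organoids of mouse 2 stood above the other 5, which lay between 9.76 and 20.0. Cd74 was lower with LDL in mice 1 and 2 and higher in mouse 3, and the log2 fold change was -0.51 ± 0.54 (SE; adjusted p = 0.662, limma). Leaving this library out gave a log2 fold change of 0.086.

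H2-DMa and H2-DMb1 encode the peptide exchange factor H2-DM. H2-DMa (chromosome 17, 34338515 to 34358958) had normalized counts of 55.1, 64.6 and 58.6 with PBS and of 59.8, 67.3 and 54.4 with LDL. These were the highest counts among the members, and they spanned only 0.23 on the log2 scale with PBS and 0.30 with LDL. The log2 fold change was 0.02 ± 0.19 (SE; adjusted p = 0.968, limma), and the 95% interval ran from -0.42 to 0.47, so that a change of 1.5-fold lay outside it. H2-DMa overlaps Brd2, a gene of the other strand with 510 bases of shared exon and a normalized count of 6071 to 6960. In each library H2-DMa stood at 0.781% to 1.11% of Brd2, and the strand setting of the counting is not stated, so reads of the pair cannot be told apart and the part of Brd2 in these values was not tested. H2-DMb1 (chromosome 17, 34372046 to 34379204) had 0, 3 and 4 reads with PBS and 3, 1 and 4 reads with LDL. It has the close paralog H2-DMb2 beside it, which had at most 2.49 normalized counts, and reads can be split between them. Per kilobase of exon, the mean level was 13.8 normalized counts for H2-DMa and 1.48 for H2-DMb1.

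Ciita (chromosome 16, 10297923 to 10347694), the coactivator on which the other members depend, had normalized counts of 8.17, 13.7 and 17.1 with PBS and of 14.6, 10.003 and 11.7 with LDL. It was higher with LDL in mouse 1 and lower in mice 2 and 3, and all LDL-treated values lay between the PBS-treated ones. The log2 fold change was -0.05 ± 0.37 (SE; adjusted p = 0.960, limma). Per kilobase of exon its mean level was 1.14 normalized counts. Ciita overlaps Dexi on the other strand by 29935 bases, with 633 bases of shared exon. Dexi had 111 to 206 normalized counts, and reads of this pair cannot be told apart either.

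**Figure D1:**
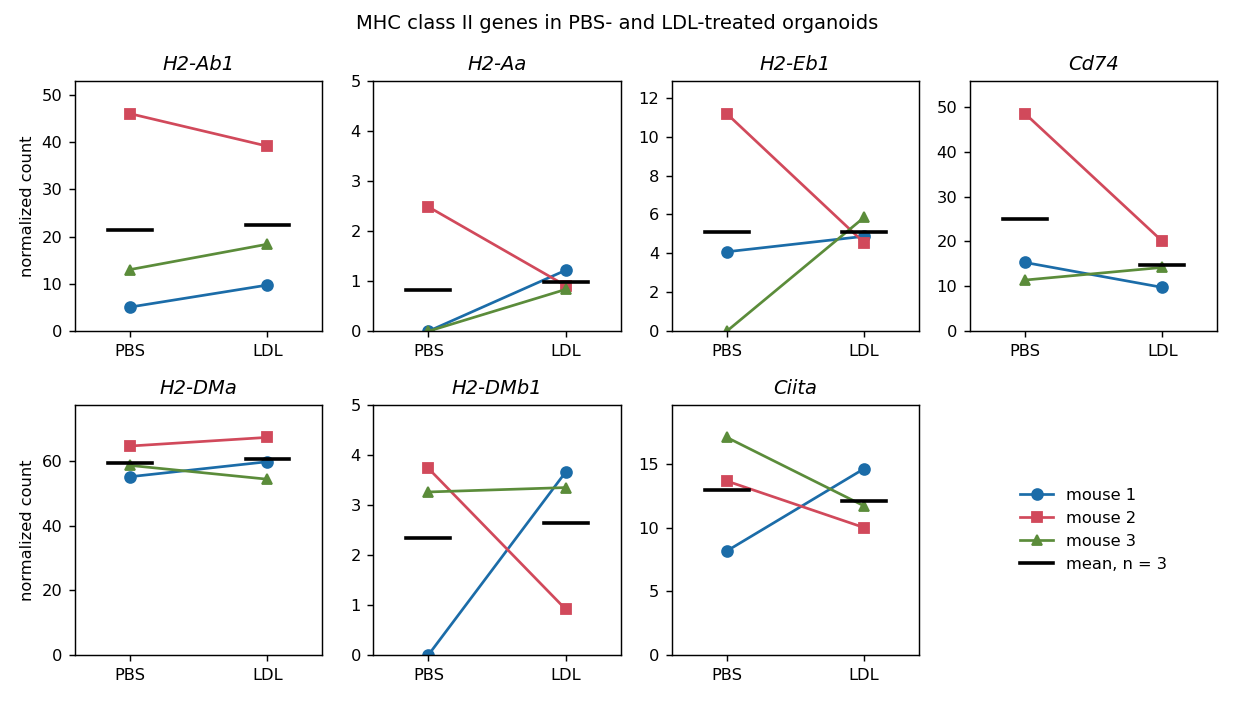
Normalized counts of the 7 class II genes in PBS- and LDL-treated organoids, on linear axes that start at 0 and differ between panels. Points joined by a line are the libraries of 1 mouse and black bars are means of 3. H2-Ab1 and Cd74 were highest in mouse 2 under both treatments, and in no gene did the treatments separate.

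None of the class II genes was called as changed by LDL. The test was the moderated test of limma (two-sided, with Benjamini-Hochberg adjustment over all genes) on log2 of the normalized count plus 1, run on the 18459 genes whose mean over the libraries reached 10. A call required both an adjusted p-value below 0.05 and a change above 1.5-fold. Of the 7 members, 4 passed this filter (H2-Ab1, H2-DMa, Cd74 and Ciita) and 3 did not. Of these 4, 0 were called higher and 0 lower, where 0.878% and 0.395% of all genes tested were called, and 0 had an unadjusted p-value under 0.05, against 19.7% of all genes. Hence the absence of calls among 4 genes does not set them apart from the background. With the mouse as a block, 0 were called in either direction, where 5.68% and 3.46% of all genes were, and DESeq2 and edgeR on the recovered reads also called 0. The PBS- and LDL-treated values overlapped in each of the 7 genes, whereas they did not overlap in 24.2% of the genes tested. The median log2 fold change of the 4 members was -0.01, beside -0.02 over all genes tested.

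How large a change could have gone unseen differed between genes. Without the block, the 95% interval of the log2 fold change ran from -1.43 to 2.14 for H2-Ab1, from -1.78 to 0.75 for Cd74 and from -0.90 to 0.80 for Ciita. Removing the difference between mice with the block narrowed the interval of H2-Ab1 to -0.39 to 1.10 and that of Cd74 to -1.35 to 0.32, and left that of Ciita at -0.93 to 0.82. For H2-Aa, H2-Eb1 and H2-DMb1 a fit without the filter gave log2 fold changes of 0.39, 0.62 and 0.31. The intervals ran from -0.89 to 1.66, from -1.13 to 2.36 and from -1.26 to 1.89. In that fit, which called 1.18% of all genes higher and 0.569% lower, their adjusted p-values were 0.770, 0.751 and 0.866 in limma. These genes rest on 0 to 9 reads per library. For H2-Eb1 the log2 differences within mice 1, 2 and 3 were 0.2, -1.1 and 2.8, the last against 0 reads with PBS. Changes of 1.5-fold upward and downward were both outside the interval only for H2-DMa.

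**Figure D2:**
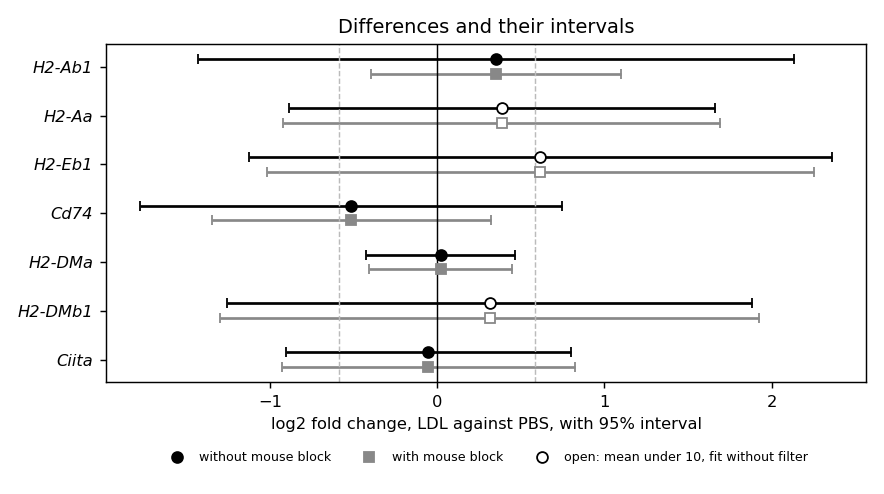
Log2 fold changes of LDL against PBS (horizontal axis) with 95% intervals for the 7 class II genes, from limma without (black circles) and with the mouse block (grey squares). Open symbols are genes with a mean under 10, from the fit without a filter, dashed lines mark 1.5-fold, and every interval includes 0.

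For H2-Ab1, values differed more between mice than between the treatments of a mouse. The log2 range among mice was 2.94 with PBS and 1.90 with LDL, whereas LDL and PBS of the same mouse differed by 0.82, -0.23 and 0.47. The summed level of 8 enterocyte markers, which include Fabp1 and Sis, was also highest in mouse 2, with 49893 normalized counts against 22292 and 24021 in the PBS-treated organoids of mice 1 and 3, and 115824 against 47852 and 62431 with LDL. Fabp1 alone gave 69615 of the 115824, and with LDL each marker but Alpi, which was highest in mouse 3, was highest in mouse 2. The part of enterocyte number in the H2-Ab1 and Cd74 values was not tested. In bulk RNA, fewer cells of a type and less RNA per cell cannot be told apart. Among 11080 protein-coding genes whose mean reached 50, the genes whose log2 values were most like the mean profile of the 4 members over the 6 libraries were Chmp3, Uap1, Plcxd2, Stx12 and Polr2k, with Pearson r between 0.965 and 0.981. Such values describe 6 libraries from 3 mice, and r was above 0.9 for 65 of these genes.

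The low class II signal was set beside markers of the cells that could carry it. All 8 epithelial markers, among them Epcam and Vil1, were abundant, with mean normalized counts of 1757 to 22677, so the libraries were epithelial as labelled. The haematopoietic marker Ptprc, which encodes CD45, had 1.63 to 6.12 normalized counts with PBS and 4.55 to 12.2 with LDL. The sum of 6 haematopoietic markers was 50.9 to 75.7 with PBS and 49.1 to 92.7 with LDL, and that of 6 B cell markers was 13.7 to 22.5 with PBS and 21.7 to 46.3 with LDL. Ms4a1, the only B cell marker to reach the filter, was 5.10, 4.97 and 9.77 with PBS and 26.8, 10.9 and 12.5 with LDL. Its groups did not overlap and it was not called (limma, log2 fold change 1.17, adjusted p = 0.205 unblocked and 0.113 blocked). Cd79a and Cd22 were lower with LDL in 2 mice of 3. For 12 markers of dendritic cells and macrophages the sum was 336 to 422 with PBS and 321 to 406 with LDL, most of it from Cd68, Lyz2 and Zbtb46, while Adgre1 was at 0 in every PBS-treated library and C1qb at 0 in every LDL-treated one. Of these 12 markers, 5 reached the filter and 0 were called, where 0.878% of all genes were called higher and 0.395% lower without the block. Itgax, which encodes CD11c and lay under the filter, had 3.06, 3.73 and 0 normalized counts with PBS and 14.6, 8.18 and 5.85 with LDL, so that the groups did not overlap (limma without the filter, log2 fold change 1.89, adjusted p = 0.259). Flt3, also under the filter, was higher with LDL in all 3 mice, at no more than 7.32 normalized counts (limma without the filter, log2 fold change 1.46, adjusted p = 0.390). Among T cell and innate lymphoid markers, Cd3e had 1.24 to 4.08 normalized counts with PBS and 1.82 to 7.32 with LDL, and Nkg7 was at 0 in all libraries. The 8 stromal and endothelial markers summed to 155 to 185 with PBS and 91.8 to 138 with LDL. Only 3 of them, Vim, Pdgfrb and Pecam1, reached the filter. Each was lower with LDL in all 3 mice without overlap of the groups, where the groups did not overlap in 24.2% of all genes tested. None of the 3 was called, with log2 fold changes of -0.56, -0.94 and -0.70 (limma, adjusted p = 0.202, 0.158 and 0.321 unblocked and 0.0470, 0.0927 and 0.200 blocked). Vim with the block missed only the 1.5-fold limit. Under the filter, Col3a1 was higher with LDL in all 3 mice without overlap, at no more than 8.54 normalized counts (limma without the filter, log2 fold change 2.035, adjusted p = 0.196). Cdh5 was also higher in all 3 mice, and Col1a2 was lower in all 3. Per kilobase of exon, the median level was 1.96 normalized counts for the class II genes, 2.99 for the haematopoietic markers and 1.13 for the B cell markers, and the part of leukocytes in the class II reads was not tested. The LDL-treated library of mouse 1 had reads on 35781 genes, against 29285 to 32751 in the others, and held the highest count of Ptprc, Ms4a1 and Cd3g. Other markers of these lists peaked elsewhere: Coro1a, Cd52 and Trac in LDL-treated mouse 3, Laptm5 in PBS-treated mouse 3 and Cd22 in PBS-treated mouse 1.

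**Figure D3:**
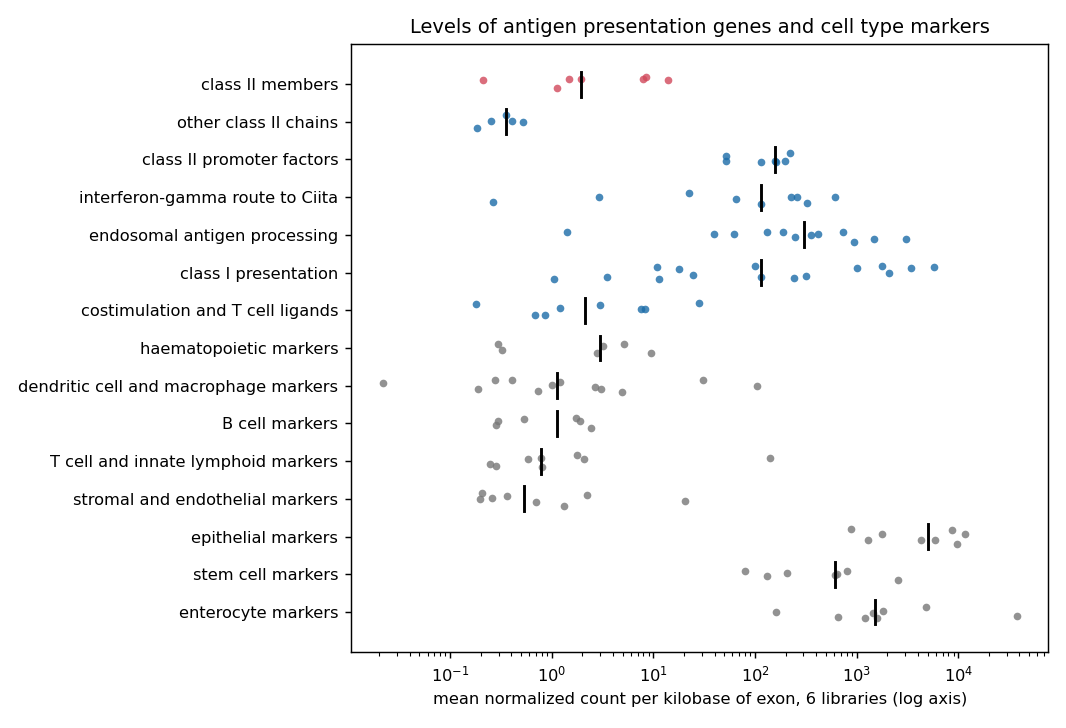
Mean normalized count per kilobase of exon over 6 libraries (log axis) for each gene of the class II group (red), related pathway lists (blue) and cell type markers (grey), with black bars for the median of a list. Nkg7, at 0, is not drawn, and the median of the class II genes lies near those of the leukocyte markers and below those of the promoter factors, class I genes and epithelial markers, although single class I genes such as Nlrc5 and Psmb8 lie below H2-Ab1, Cd74 and H2-DMa.

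The promoter factors that act with CIITA were present at much higher levels and were not called as changed. Rfx5, Rfxap and Rfxank encode the RFX complex, Nfya, Nfyb and Nfyc the NF-Y complex, and Creb1 a factor of the X2 box. Their mean normalized counts were 233 to 3096, with a median per kilobase of exon of 156, against 1.96 for the 7 members. Log2 fold changes were between -0.23 (Rfx5) and 0.05 (Nfyb), and 0 of 7 were called with or without the block. Over all genes, 5.68% were called higher and 3.46% lower with the block. Rfx5 was 333, 329 and 344 with PBS and 294, 271 and 294 with LDL, so that its groups did not overlap, as in 24.2% of all genes (limma, adjusted p = 0.295). Of the other class II chain genes, H2-Ea, H2-Eb2, H2-DMb2, H2-Oa and H2-Ob, 0 of 5 reached the filter, and their means were 0.546 to 1.36 normalized counts.

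In the route from interferon-gamma to Ciita, the receptor and kinases were well expressed whereas the ligand was not. Ifng, made by lymphocytes, had 0 reads in all PBS-treated libraries and at most 1.22 normalized counts with LDL. The receptor chains Ifngr1 and Ifngr2 had means of 1746 and 1452 normalized counts. Ifngr1 was higher with LDL in each mouse, and its groups did not overlap. Its log2 fold change of 0.33 was under the 1.5-fold limit (limma, adjusted p = 0.121 unblocked and 0.0262 blocked). That of Ifngr2 was -0.01. Among the kinases, log2 fold changes were 0.22 for Jak1, higher in each mouse, and -0.10 for Jak2. Irf1, a transcription factor induced by interferon-gamma that acts on the interferon-responsive promoter of Ciita, was higher with LDL in each mouse. It had normalized counts of 169, 251 and 290 with PBS and of 245, 417 and 459 with LDL, which were 1.45, 1.66 and 1.58 times the PBS-treated value of the same mouse. Irf1 was called only with the mouse block (log2 fold change 0.64, limma, adjusted p = 0.260 unblocked and 0.00752 blocked). It was the 1 called gene of the 7 tested in this list, where the block called 5.68% of all genes higher. Ciita was higher with LDL in 1 mouse of 3.

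Endosomal enzymes that process antigen were abundant, and the cathepsins Ctsl and Ctsh were called higher within mice. Of 12 genes tested, 0 were called without the block. With it, where 5.68% of all genes were called higher and 3.46% lower, 2 were called higher and 0 lower. Ctsl, a cysteine protease that also cleaves the invariant chain, was 646, 693 and 749 with PBS and 2515, 918 and 2059 with LDL. Every LDL-treated value was above every PBS-treated one, where the groups did not overlap in 24.2% of all genes tested. The log2 fold change of Ctsl was 1.27 (limma, adjusted p = 0.102 unblocked and 0.0125 blocked). Ctsh was 820, 767 and 965 with PBS and 2005, 1058 and 1830 with LDL, a log2 fold change of 0.89 (limma, adjusted p = 0.102 unblocked and 0.00627 blocked). Ctsd, an aspartic protease, was 1677, 1697 and 1715 with PBS and 2287, 2153 and 2692 with LDL, again without overlap. Its log2 fold change of 0.48 was under the 1.5-fold limit and it was not called (limma, adjusted p = 0.0681 unblocked and 0.00900 blocked). Ctss, the main protease of invariant chain removal in antigen-presenting cells, had a mean of 209 normalized counts. Its log2 fold change was -0.30 (limma, adjusted p = 0.503 unblocked and 0.194 blocked). Ifi30, which reduces disulfide bonds of endosomal antigens, had a mean of 3181 normalized counts. Its log2 fold change was -0.25 (limma, adjusted p = 0.321 unblocked and 0.0571 blocked). Ctss and Ifi30 were lower with LDL in all 3 mice, and neither was called.

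MHC class I genes, which present cytosolic peptides and are made by most cells, differed from class II in level. H2-K1, H2-D1 and B2m had means of 5691, 3028 and 7191 normalized counts, at the 98.4th, 97.2nd and 99.1st percentile of 21627 protein-coding genes by level per kilobase of exon, whereas the class II members lay between the 15.5th and 50.2nd percentile. Of 14 class I pathway genes tested, 0 were called without the block. With it, where 5.68% of all genes were called higher and 3.46% lower, 0 were called higher and 1 lower. That gene was Psmb9, which encodes an immunoproteasome subunit induced by interferon, with 43.9, 75.8 and 50.5 normalized counts with PBS and 12.2, 42.7 and 23.4 with LDL. It was lower with LDL in each mouse, and its log2 fold change was -1.22 (limma, adjusted p = 0.186 unblocked and 0.0192 blocked). Nlrc5, the class I counterpart of Ciita, had a mean of 8.88 normalized counts and was not tested.

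Among ligands that accompany antigen to T cells, Cd80 and Icosl were detected with means of 31.0 and 129 normalized counts, and Cd86, Cd40, Pdcd1lg2 and Tnfsf14 had means under 3. Of 4 genes tested, 1 was called higher with the block, where 5.68% of all genes were, and 0 without it. Icam1, an adhesion molecule for T cell integrins, was 35.7, 11.2 and 24.4 with PBS and 65.9, 30.9 and 77.8 with LDL, a log2 fold change of 1.30 (limma, adjusted p = 0.198 unblocked and 0.0127 blocked).

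**Figure D4:**
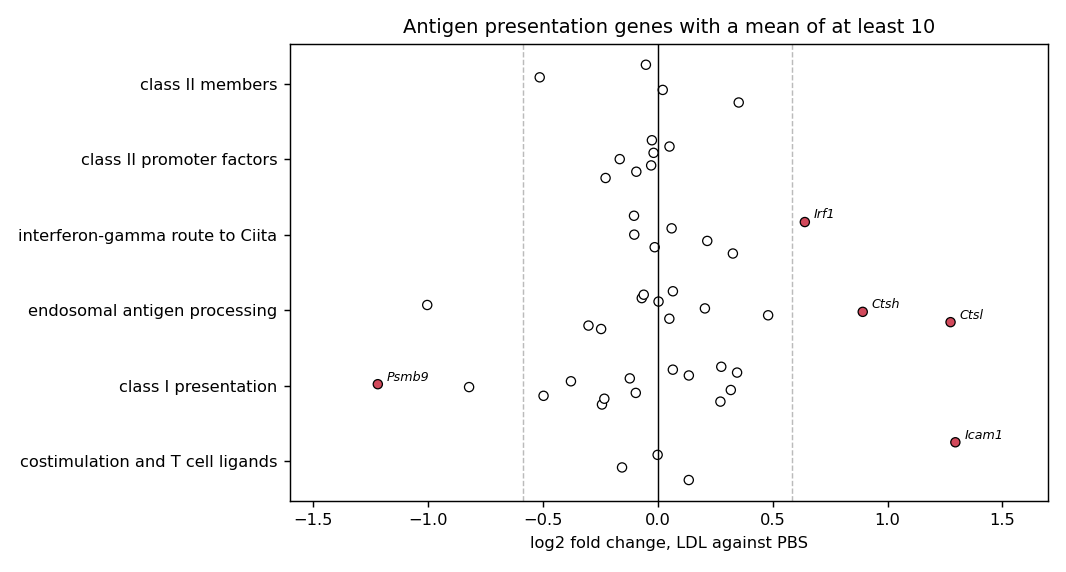
Log2 fold changes of LDL against PBS for antigen presentation genes that reached the filter (mean of 10), by list, with dashed lines at 1.5-fold. Filled red points (Irf1, Ctsh, Ctsl, Psmb9 and Icam1) were called with the mouse block, no gene shown was called without it, and the vertical offset within a list has no meaning.

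Epithelial class II is known in crypt stem cells and enterocytes, and some of their markers were called, those of stem cells only with the block. Without the block, 0 of 7 stem cell markers and 2 of 8 enterocyte markers were called, namely Alpi and Fabp1. Their log2 fold changes were 2.13 and 2.74 (limma, adjusted p = 0.00828 and 0.0285). Of all genes, 0.878% were called higher and 0.395% lower without the block, and 5.68% and 3.46% with it. With the block, Ascl2 was called higher (log2 fold change 1.22) and Olfm4 and Smoc2 lower (-1.17 and -0.79), at limma adjusted p-values of 0.00333 to 0.0387. The other stem cell markers were not called. In the same fit the enterocyte genes Apoa4 and Fabp2 were called higher and Lct lower, and the keratin genes Krt8 and Krt18 were called higher among the epithelial markers. The class II genes were not called beside them.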

How the data were processed

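Total RNA of 6 organoid cultures was depleted of ribosomal RNA and sequenced from stranded libraries. Per the paper's methods and the labels, the authors aligned reads to GRCm39 with STAR, counted them with featureCounts and used DESeq2; the strand setting is not given in the sources used here. The deposited signal values are normalized counts, and whole reads (within 0.01 read) were recovered for 100% of the values by dividing by 1 step per library. Names, positions and exon lengths came from GENCODE M39 (54749 of 55416 identifiers matched), and promoters from RefSeq. Pairing follows the shared animal identifier, and deviations from treatment means correlated within mice (r = 0.48, 0.42 and 0.46 across genes). Cultures of different mice are the replicates.

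Tests used limma 3.58.1, edgeR 4.0.16 and DESeq2 1.42.0 in R 4.3.3, and were tested on simulated data; tables and figures used Python 3.11.15 and pandas 2.3.3. Without the block the design follows the paper, which states no pairing term. Members and the 15 lists were chosen with earlier results of these data known. All members, list genes called in either fit (up to 4 a list) and the 5 genes of most similar pattern were named. Other list genes, such as Itgax, Flt3, Ms4a1, Vim, Pdgfrb, Pecam1, Col3a1, Cdh5, Ifngr1 and Ctsd, were named after their values were seen. Some of the genes tested are left out here. Alternatives were pseudocount, filter, scaling, block, libraries left out and count tests. A design of 3 against 3 has a smallest exact permutation p of 0.1, so no such test was used. Depth was 22061545 to 31073360 reads, and a gene without a read could hold up to 3.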

Additional observations from a re-analysis of the deposited data

How the results depend on the processing

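The counts of 0 class II genes called higher and 0 called lower held in each of the 20 alternatives, and the smallest adjusted p-value of any member in any fit was 0.315 (Cd74, edgeR with the block). The median log2 fold change of the members tested stayed between -0.33 and 0.31, less than the spread between libraries from the main value. Directions were not stable. With 1 or more libraries left out, log2 fold changes ran from -0.34 to 1.13 for H2-Ab1, -0.92 to 0.086 for Cd74, -0.33 to 0.18 for Ciita and -0.057 to 0.095 for H2-DMa. H2-Ab1 turned negative without the PBS-treated library of mouse 1 (-0.34) or the LDL-treated library of mouse 2 (-0.14). Quantile normalization gave -0.085 for H2-DMa. Over all genes, 235 were called, 751 without the filter, 1687 with the replicate block, 1194 with DESeq2, 1492 with DESeq2 and the block, 1759 with edgeR and the block, and 0 to 2312 with libraries left out. The 0 came from limma without mouse 3, where 1272 genes had an unadjusted p-value under 0.05, and the 2312 from the fit that lacked LDL-treated mouse 2. The cause was not tested. A filter at a mean of 50 kept H2-DMa alone of the members. The replicate block changed the call of no member. The fit without the filter and with the block was chosen after seeing the data. Depth limits H2-Aa, H2-Eb1 and H2-DMb1, which held 0 to 9 reads per library.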
